A study of Danio rerio with 12 samples.

Results

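The presomitic mesoderm (PSM) is the unsegmented tissue that lies between the tailbud and the newest somite of a vertebrate embryo, and the central piece of it is compared here with the anterior piece, from which the next somites form. The pieces were cut by hand from wild-type zebrafish of the AB line, raised at 23 °C and taken at the 12-somite stage, and 2 arrays titled as spatial point 4 (center PSM) were set against 2 titled as spatial point 5 (anterior PSM). These are 4 of the 12 arrays of a series that runs over 6 positions, from the center of the tailbud and its flank (positions 1 and 2) over posterior PSM (position 3) and the pieces compared here to the youngest somites (position 6). Total RNA was amplified and hybridized to Affymetrix arrays, and the labels call the 2 arrays of a position biological replicates. The sources used here do not say how many embryos gave tissue to each. The p-values set a difference against the spread between replicate arrays, pooled over all 6 positions, and the spread between embryos is not known.

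Cells pass through the PSM from posterior to anterior while somites are cut off at its front. In the posterior part FGF and Wnt signals keep the cells immature, and a clock of oscillating Hairy/E(spl)-related (Her) repressors and Notch signalling runs in them. In the anterior part retinoic acid is made, the clock slows and stops, and Mesp transcription factors mark where the next boundary will lie. The comparison therefore spans the stretch in which cells stop being progenitor-like and the segment pattern is laid down.

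The values are signals on a linear scale, computed per probe set and scaled per array by the authors. Over the 4 arrays the median signal was 52.2 and 67.6 in center PSM and 41.9 and 55.2 in anterior PSM, and over all 12 arrays it ran from 27.3 to 68.3. Correlations between the 2 replicates across the tested probe sets, which are not independent of each other, were 0.865 in center PSM and 0.907 in anterior PSM, within the range of 0.831 to 0.968 over the 6 positions. The labels were checked against marker genes. *tbx6*, a T-box factor of the PSM, had signals of 820.8 and 902 in center PSM and 610.7 and 534.9 in anterior PSM, above the 7.6 and 58.7 of the tailbud center and the 228 and 259.4 of the somites. *myog*, a muscle differentiation factor, had 16.4 and 6.4 in center PSM and 5.2 and 4.8 in anterior PSM, against 120.4 and 61.3 in the somites. Several PSM markers, *mespab*, *mespbb*, *ripply1* and *ripply2*, are not named among the probe sets used here. Both pieces thus carried *tbx6* and little *myog*. Low *myog* did not mean low muscle transcripts in general. The summed signal of the sarcomere genes was 10034 and 9018 in center PSM, 14018 and 13916 in anterior PSM, and 17608 and 13934.5 in the somites.

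Differences are center PSM minus anterior PSM on a scale of log2 of the signal plus 12.2, so a positive value means higher in center PSM, and folds on this scale understate changes of genes with low signals. Of 10851 probe sets tested, 23 (0.212%) were called with limma at an adjusted p under 0.05, 11 higher (0.101%) and 12 lower (0.111%) in center PSM. They stand for 9 named genes that were higher, 9 named genes that were lower and 5 probe sets without a symbol, so 18 of 6834 tested genes (0.263%) were called. In all 23 both arrays of one position lay above both of the other, which was so for 20.9% (center above) and 16.9% (center below) of all tested probe sets. At an unadjusted p under 0.05 there were 767. The calls lean on variances that are allowed to follow the signal level: without that trend limma called 0 probe sets, with 879 at an unadjusted p under 0.05 and a smallest adjusted p of 0.125. With 2 arrays per position single arrays also weigh heavily, and 3 of the 23 calls (*plk3*, *sp5l* and *ier2a*) were made whichever of the 4 arrays was left out, while 11 were made in none of those 4 fits.

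**Figure D1:**
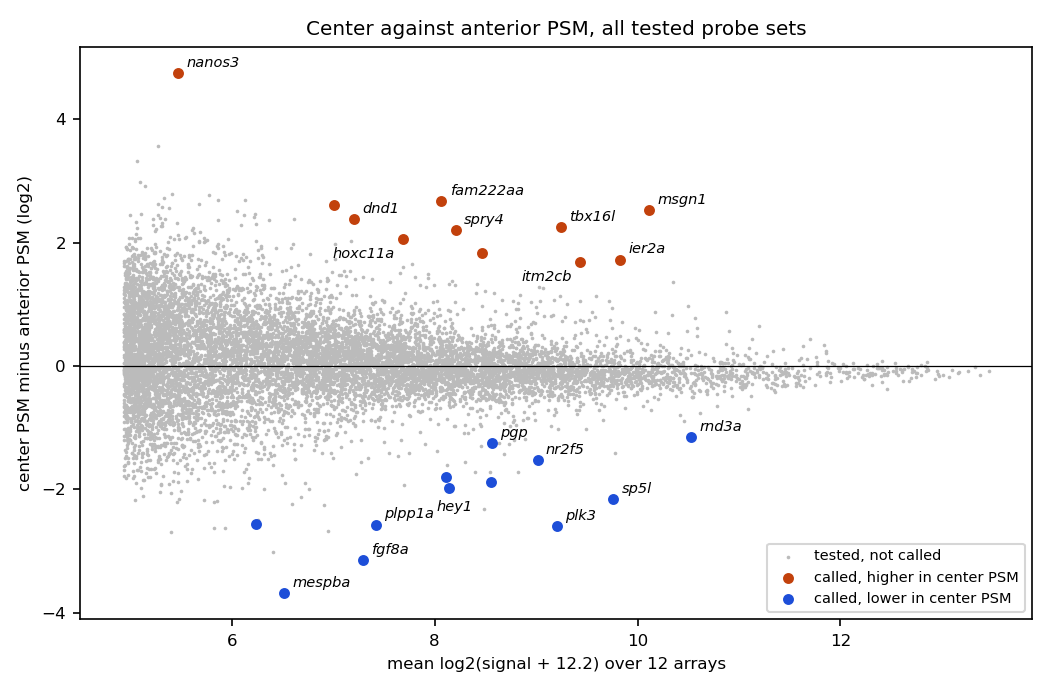
Difference between center and anterior PSM (log2, vertical axis) against the mean log2 level over 12 arrays (horizontal axis) for the 10851 tested probe sets. Orange points are the 11 called higher and blue points the 12 called lower in center PSM. The spread of the uncalled probe sets (grey) narrows as the level increases, and *nanos3* (4.75) and *mespba* (-3.68) lie farthest from 0 among those called.

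The group that was higher in center PSM held transcription factors of the posterior paraxial mesoderm. *msgn1*, a basic helix-loop-helix factor needed to make paraxial mesoderm, had signals of 1217.7 and 946.6 in center PSM, against 228.6 and 134.8 in anterior PSM. The difference was 2.53 ± 0.38 (SE), 5.77-fold, with a limma adjusted p of 0.00374. Its other tested probe set gave 2.42 without a call (adjusted p = 0.0547). *tbx16l*, a T-box factor that acts with *tbx16*, had 653.4 and 382.4 in center PSM and 96.4 and 93.7 in anterior PSM (2.26 ± 0.35, adjusted p = 0.00678). For both genes the lower center array still lay far above the higher anterior array. In this bulk tissue, fewer cells with a transcript and less of it per cell cannot be told apart.

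Levels in center PSM lay below those farther back. The posterior PSM had a mean *msgn1* signal of 5374 ± 1088 (SD, n = 2), against 1082 ± 192 in center PSM, 182 ± 66.3 in anterior PSM and 76.9 ± 69.2 in somites. *tbx16*, which acts in the same cells, had 215.1 and 188.6 in center PSM and 73.6 and 87.2 in anterior PSM, and the difference of 1.21 was not called (adjusted p = 0.105). *tbxta*, the tailbud and notochord factor, had 81.1 and 129.9 in center PSM and 75 and 24.9 in anterior PSM (1.02, adjusted p = 0.549). Of 16 tested genes in the list of tailbud and posterior mesoderm progenitor factors, 2 were called higher (*msgn1*, *tbx16l*) and 1 lower (*sp5l*), against 0.132% of all 6834 tested genes in each direction. The median difference of the list was 0.25, beside 0.03 over all tested probe sets, and it was 0.0017 after median centring, beside -0.22, and 0.54 without replicate 1 of anterior PSM. *vox*, a ventral homeobox repressor, had 340.3 and 428.8 in center PSM and 137.6 and 200.2 in anterior PSM, without a call (1.14, adjusted p = 0.105). *cdx4*, a caudal-related factor, was high at both positions, with 4090.9 and 3328.4 in center PSM and 2810.2 and 3034.4 in anterior PSM.

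*hoxc11a*, a posterior Hox gene, was also higher in center PSM, with 257.6 and 166.4 there and 45 and 36.4 in anterior PSM (2.06 ± 0.35, adjusted p = 0.0131). Its other 2 probe sets had differences of 1.64 and 2.36 without a call (adjusted p = 0.677 and 0.13). Hox genes of groups 9 to 13 pattern the trunk and tail, and 13 of the 15 tested had a value above 0. Both center arrays lay above both anterior arrays in 11 of them, where 20.5% of all tested genes did so. The median was 0.62, and it was 0.51 after quantile normalization and 0.37 after median centring, which put the median of all probe sets at -0.02 and -0.22. *hoxd10a* had 433.6 and 435.3 in center PSM and 218 and 238 in anterior PSM, a difference of 0.90 that was not called (adjusted p = 0.432). Of 20 tested Hox genes of groups 1 to 8, 0 were called by limma at an adjusted p under 0.05 and the median of 0.22 turned to -0.029 after median centring and was 0.088 without replicate 1 of anterior PSM and 0.41 without its replicate 2.

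Called on the same side were *itm2cb* and *fam222aa*. *itm2cb*, which encodes a small integral membrane protein of the BRICHOS family, had 608.5 and 410.2 in center PSM and 122.4 and 176.1 in anterior PSM (1.69 ± 0.23, adjusted p = 0.00211). *fam222aa* had 138 and 236.1 in center PSM and 5.7 and 39.2 in anterior PSM (2.67 ± 0.48, adjusted p = 0.0197). Along the axis both had their highest mean in the tailbud center. With 1 array left out, the adjusted p ran from 0.0164 to 0.131 for *msgn1*, from 0.0237 to 0.111 for *tbx16l*, from 0.0407 to 0.178 for *hoxc11a*, from 0.00644 to 0.103 for *itm2cb* and from 0.00649 to 0.51 for *fam222aa*. Under median centring *hoxc11a* and *itm2cb* were not called. *hoxc11a* was also not called with an offset of 1 (limma adjusted p = 0.132). Averaged over its probe sets it differed by 2.02, again without a call (limma adjusted p = 0.106).

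**Figure D2:**
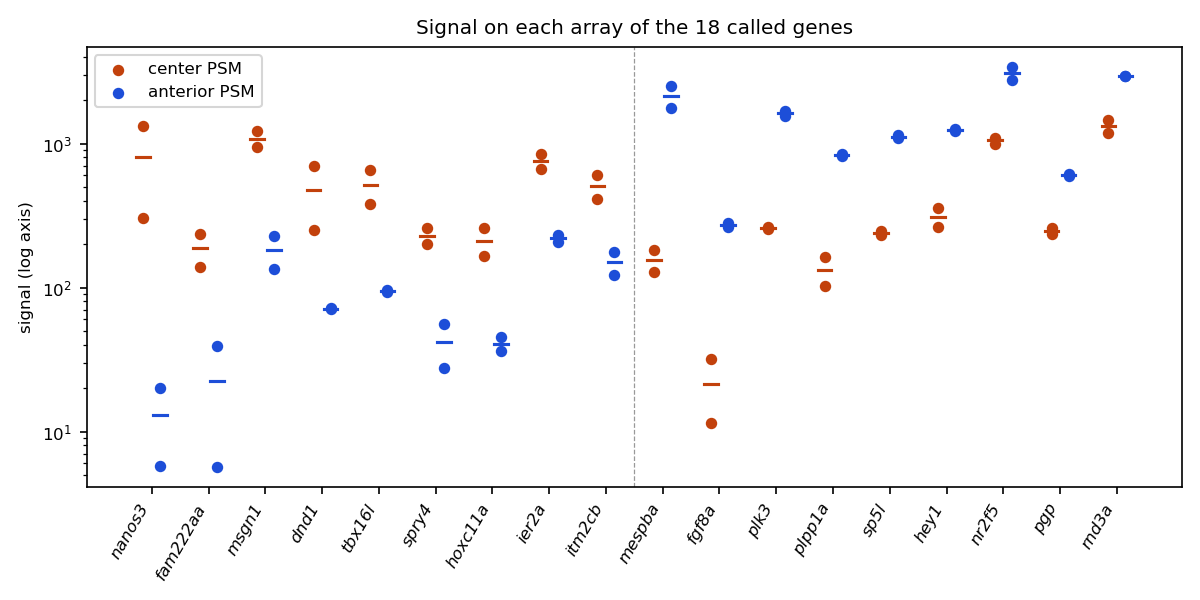
Signal (log axis) on each of the 2 center PSM arrays (orange) and 2 anterior PSM arrays (blue) for the 18 called genes with a symbol, with a bar at each mean. The 9 genes left of the dashed line were higher and the 9 right of it lower in center PSM. In none of the 18 do the arrays of the positions overlap, and the center arrays lie farthest apart for *nanos3* (1316.7 and 304).

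In the FGF pathway a ligand gene and a feedback inhibitor gene differed in opposite directions. FGF ligands act through receptor tyrosine kinases and ERK, and ERK signalling induces Sprouty and Dusp inhibitors of the pathway. *spry4*, a Sprouty inhibitor, was higher in center PSM, with 199.3 and 258.5 there and 27.7 and 56.1 in anterior PSM (2.2 ± 0.41, 4.58-fold, adjusted p = 0.0258). *fgf8a*, which encodes an FGF ligand, was lower in center PSM, with 31.7 and 11.4 there and 262.4 and 282.7 in anterior PSM (-3.14 ± 0.59, adjusted p = 0.0247). With 1 array left out neither was called. Nor was either called with the filter at the 60th percentile (limma adjusted p = 0.0629 for *spry4* and 0.0602 for *fgf8a*). *fgf8a* was also not called with an offset of 1 (limma adjusted p = 0.0629). *spry4* was not called with an offset at the median of all values (limma adjusted p = 0.0572).

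Each of these genes had its low point in a different piece. *spry4* averaged 599 ± 205 in posterior PSM, 229 ± 41.9 in center PSM, 41.9 ± 20.1 in anterior PSM and 322 ± 26.8 in the somites (SD, n = 2 each). *fgf8a* averaged 538 ± 69.1 in the tailbud center, 153 ± 113 in posterior PSM, 21.6 ± 14.4 in center PSM, 273 ± 14.4 in anterior PSM and 357 ± 67.7 in the somites. The lowest mean of the 6 positions was thus in anterior PSM for *spry4* and in center PSM for *fgf8a*.

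Of 18 tested FGF genes 1 was called higher and 1 lower, as were 0.132% of all tested genes in each direction, and both center arrays lay above both anterior arrays in 10 and below in 4 (20.5% and 18.2% of all tested genes). The median of the list was 0.43, and it was 0.18 after median centring, which put the median of all probe sets at -0.22. With 1 array left out it ran from 0.33 without replicate 2 of anterior PSM to 0.65 without its replicate 1. *dusp6*, an ERK phosphatase, had 1031.9 and 892.7 in center PSM and 450.3 and 633.5 in anterior PSM, a difference of 0.83 that was not called (adjusted p = 0.129). Its other probe set had 89.3 and 108.4 in center PSM and 5.6 and 10.8 in anterior PSM (2.45, adjusted p = 0.0547), and the mean over both probe sets was called (1.64, adjusted p = 0.00604). *il17rd*, a membrane inhibitor of FGF receptors also known as Sef, had 486.9 and 386.2 in center PSM and 214 and 234.5 in anterior PSM (0.92, adjusted p = 0.395). *etv5a*, an Ets factor induced by FGF, had 450.3 and 520.4 in center PSM and 207.8 and 258.3 in anterior PSM (1.02, adjusted p = 0.105). The tested probe set of the receptor gene *fgfr1a* had low signals, 31 and 18.3 in center PSM and 29.1 and 43 in anterior PSM.

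*sp5l*, which encodes a zinc finger factor of the Sp family that acts downstream of Wnt, was lower in center PSM. It had 233 and 248.4 there and 1089.4 and 1143.6 in anterior PSM (-2.16 ± 0.24, 4.46-fold higher in anterior PSM, adjusted p = 0.000191). The call was made whichever array was left out, with adjusted p from 0.00644 to 0.0115. The center PSM again held the lowest mean of the axis: 1255 ± 85.2 in posterior PSM, 241 ± 10.9 in center PSM, 1116 ± 38.3 in anterior PSM and 485 ± 184 in the somites. In all, 4 of the 12 probe sets called lower in center PSM had their lowest mean there: *fgf8a*, *sp5l* and 2 without a symbol. Of all tested probe sets 10.7% had it there. These shares are not like for like, because a call as lower in center PSM already takes anterior PSM out as the lowest position.

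The Wnt list itself does not hold *sp5l*. Of its 23 tested genes limma called 0 at an adjusted p under 0.05. The median was 0.09, and 0.24 without replicate 1 of center PSM. It was -0.16 after median centring, which put the median of all probe sets at -0.22. *dact2*, an intracellular modulator of Wnt and nodal signals, had 227 and 291.6 in center PSM and 66.3 and 104.5 in anterior PSM, without a call (1.49, adjusted p = 0.0859). *axin2*, a feedback inhibitor induced by Wnt, had 57.3 and 121.1 in center PSM and 56.2 and 41.9 in anterior PSM (0.66, adjusted p = 0.84). *lef1*, a transcription factor of the pathway, had 28.2 and 10.3 in center PSM and 54.6 and 43.2 in anterior PSM (-1.01, adjusted p = 0.729). In the BMP, nodal and TGF-beta list of 33 tested genes 0 were called by limma at that threshold, with a median of 0.52 that became 0.23 after quantile normalization, 0.27 after median centring, 0.17 with the filter at the 60th percentile and 0.09 without replicate 2 of center PSM. *bambia*, a pseudoreceptor that damps BMP signals, had 213.4 and 218.7 in center PSM and 73.1 and 48.9 in anterior PSM (1.66, adjusted p = 0.134).

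Among the genes that were lower in center PSM, *mespba* had the largest difference. It encodes a Mesp basic helix-loop-helix factor, which acts in the segment about to form. Its signals were 128.4 and 181.6 in center PSM, against 2504.8 and 1768.1 in anterior PSM (-3.68 ± 0.67, 12.8-fold higher in anterior PSM, adjusted p = 0.0214). The peak was narrow: the means were 31 ± 35.7 in posterior PSM and 93.1 ± 101 in the somites. With 1 array left out the difference stayed between -3.93 and -3.43 and was not called. It was also not called with an offset of 1 (limma adjusted p = 0.168) or with the filter at the 60th percentile (limma adjusted p = 0.0527). *mespaa*, a related gene, had 252.2 and 231.1 in center PSM and 724.8 and 441.7 in anterior PSM, and its difference of -1.19 was not called (adjusted p = 0.706). Probe sets may also bind transcripts of near-identical paralogs, which cannot be told apart here.

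Of 11 tested genes for segment boundaries and polarity, 1 was called lower and 0 higher, against 0.132% of all tested genes in each direction. Both center arrays lay below both anterior arrays in 7 (18.2% of all tested genes). The median was -0.60, the difference of *foxc1a*, which is also in the list of somite and myogenic transcription factors. The list median was -0.78 after quantile normalization. After median centring it was -0.85, where the median of all probe sets was -0.22. With 1 array left out it ran from -0.93 without replicate 1 of center PSM to -0.28 without its replicate 2. *pcdh10b*, a protocadherin, had 364 and 174.4 in center PSM and 737.5 and 859.3 in anterior PSM (-1.61, adjusted p = 0.105). *pcdh8*, the protocadherin known as Papc, had 130.7 and 85.7 in center PSM and 172.8 and 248.4 in anterior PSM (-0.89, adjusted p = 0.814). *efnb2a*, an ephrin ligand of segment boundaries, had 8.5 and 14.6 in center PSM and 33.2 and 45.1 in anterior PSM (-1.11, adjusted p = 0.808). *epha4a*, an Eph receptor of the same system, had 97.4 and 64.3 in center PSM and 121.5 and 120.1 in anterior PSM (-0.54, adjusted p = 0.821). Differences were above 0 for 3 of the 11 genes, among them *foxc1b* (0.05) and *tbx6*. That of *tbx6*, with the values given above, was 0.58 and was not called (adjusted p = 0.847).

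*hey1*, a repressor of the Hairy/E(spl)-related family induced by Notch, was lower in center PSM. It had 264.8 and 354.6 there and 1221.3 and 1254.7 in anterior PSM (-1.97 ± 0.37, adjusted p = 0.0263). It was not called under quantile normalization, nor with 1 array left out. The same held for an offset of 1 (limma adjusted p = 0.0811) and the filter at the 60th percentile (limma adjusted p = 0.0602). It was the 1 called gene of 26 tested in the clock and Notch list (0.132% of all tested genes were called lower). The median of the list was -0.18, but it was 0.14 without replicate 2 of anterior PSM, 0.0008 without replicate 2 of center PSM and -0.36 without replicate 1 of anterior PSM. The clock repressor *her7* had 210.6 and 234.2 in center PSM and 87.4 and 119.4 in anterior PSM, a difference of 1.03 that was not called (adjusted p = 0.686). *her1*, its partner, had 343.7 and 209.5 in center PSM and 204 and 187.6 in anterior PSM (0.43, adjusted p = 0.904), and in the somites it had 7.1 and 11.2 and *her7* 9.2 and 23.2. *hes6*, which codes for a partner of the Her proteins, had 1759.2 and 756.2 in center PSM and 700.1 and 484.8 in anterior PSM (0.97, adjusted p = 0.376). Of the Notch ligand genes, *dlc* had 801.9 and 482.4 in center PSM and 1036.9 and 814.5 in anterior PSM, without overlap, and *dld* had 1254 and 947.9 in center PSM and 1236.5 and 1133.1 in anterior PSM (-0.55 and -0.12, adjusted p = 0.826 and 0.941). A second *dlc* probe set did overlap, with 464.2 and 215.2 in center PSM and 382.1 and 351.9 in anterior PSM (-0.20). The remaining *dlc* probe set had low signals without overlap (-0.69). Another ligand gene, *jag1a*, had 93.4 and 69.7 in center PSM and 5.1 and 8.4 in anterior PSM, without a call (2.30, adjusted p = 0.105). The fringe gene *lfng*, whose product modifies Notch, had 156.7 and 388.9 in center PSM and 375.3 and 571.3 in anterior PSM, and these overlap.

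**Figure D3:**
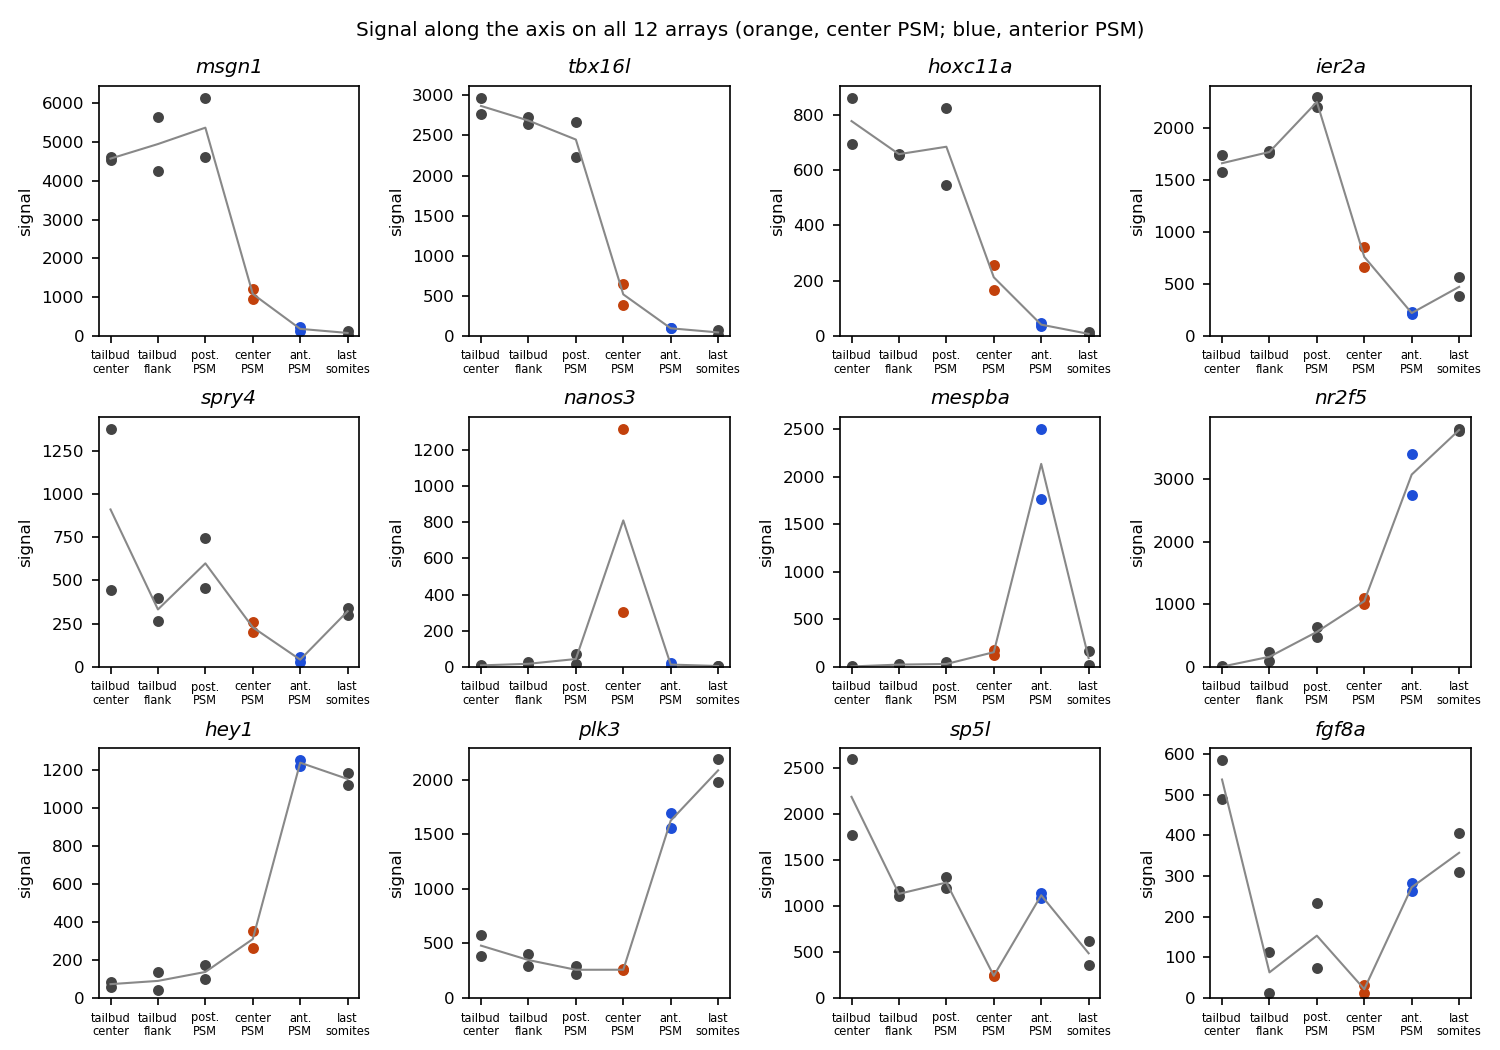
Signal (linear axis) on all 12 arrays, 2 per position, for 12 of the called genes, ordered from the tailbud center to the last formed somites. The grey line joins position means, with center PSM in orange and anterior PSM in blue. *msgn1*, *tbx16l* and *hoxc11a* decline through these pieces, *nr2f5*, *hey1* and *plk3* are higher in anterior PSM and somites, *mespba* peaks in anterior PSM, *sp5l* and *fgf8a* are lowest in center PSM, and *nanos3* is high on the 2 center arrays.

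*nr2f5*, a COUP-TF nuclear receptor with no settled ligand, was lower in center PSM, with 1100.8 and 1000.4 there and 3400.8 and 2745.3 in anterior PSM (-1.53 ± 0.30, adjusted p = 0.037). It was not called under quantile normalization or median centring, nor with 1 array left out. The same held for an offset of 1 (limma adjusted p = 0.132) and the filter at the 60th percentile (limma adjusted p = 0.0665). *nr2f2*, of the same family, had 187.6 and 180.5 in center PSM and 590.8 and 487.1 in anterior PSM (-1.48, adjusted p = 0.0889). *aldh1a2*, which makes retinoic acid, had 330.4 and 359.8 in center PSM and 1279.2 and 1418.4 in anterior PSM. Its difference of -1.93 missed the threshold (adjusted p = 0.065). It passed in 4 of 16 alternative fits, among them that of only the 4 arrays (adjusted p = 1.58e-05). It did not pass after quantile normalization (adjusted p = 0.129), with an offset of 1 (0.299) or without the intensity trend (0.34). With 1 array left out the difference stayed between -2.00 and -1.855 and was not called.

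The retinoic acid receptor genes *rarga* and *raraa* lay the other way, without calls. *rarga* had 332.1 and 345.5 in center PSM and 149.9 and 136.7 in anterior PSM (1.18, adjusted p = 0.191), although its other probe set differed by -0.18. *raraa*, with the highest difference of the retinoic acid list, had 396.8 and 329.3 in center PSM and 107.4 and 176.6 in anterior PSM (1.31, adjusted p = 0.115). The gene for the enzyme that breaks retinoic acid down, *cyp26a1*, had center arrays that lay far apart, 204.5 and 5.2, against 67.8 and 87.4 in anterior PSM. Its difference of -0.54 was not called (adjusted p = 0.918). It became -2.36 with a call (adjusted p = 0.0288) without replicate 1 of center PSM and 1.28 without replicate 2. Of 20 tested retinoic acid genes, 1 was called lower (0.132% of all tested genes) and 0 higher. Differences were above 0 for 11 of them and below 0 for 9. The median was 0.07, but -0.036 with the filter at the 60th percentile and -0.11 without replicate 2 of anterior PSM. It was -0.10 after quantile normalization and -0.17 after median centring, which put the median of all probe sets at -0.02 and -0.22.

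*plk3* and *ier2a*, which cells switch on quickly after growth factor or stress signals, were called with the smallest adjusted p values apart from *sp5l*, and in opposite directions. *plk3*, a polo-like kinase gene, was lower in center PSM, with 254.4 and 262.1 there and 1555.8 and 1692.1 in anterior PSM (-2.60 ± 0.24, 6.05-fold higher in anterior PSM, adjusted p = 2.2e-05). *ier2a*, an immediate early gene, was higher in center PSM, with 666.2 and 852.2 there and 207.6 and 232 in anterior PSM (1.72 ± 0.21, adjusted p = 0.000594). With 1 array left out, adjusted p ran from 0.00164 to 0.00327 for *plk3* and from 0.00673 to 0.029 for *ier2a*. *ier2a* was not called under median centring.

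Along the axis, *plk3* averaged 258 ± 54.4 in posterior PSM, 258 ± 5.44 in center PSM, 1624 ± 96.4 in anterior PSM and 2084 ± 150 in the somites. *ier2a* averaged 2248 ± 69.2 in posterior PSM and 472 ± 129 in the somites. In the list of 31 tested immediate early and stress genes these 2 were the ones called (0.263% of all tested genes). The median was 0.03, and -0.21 after median centring, which put the median of all probe sets at -0.22. With 1 array left out it ran from -0.16 without replicate 2 of center PSM to 0.24 without replicate 2 of anterior PSM. *fosab*, a subunit of AP-1, had 166.8 and 246.4 in center PSM and 54.2 and 72.7 in anterior PSM (1.52, adjusted p = 0.438). Its partner *jun* had 228.2 and 432.2 in center PSM and 106.7 and 114.8 in anterior PSM (1.41, adjusted p = 0.695). *gadd45ba*, a growth arrest gene, had 244.2 and 235.8 in center PSM and 507.1 and 437.6 in anterior PSM (-0.94, adjusted p = 0.467).

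The remaining named genes that were lower in center PSM have roles outside these pathways. *rnd3a*, whose product acts on the actin cytoskeleton, had 1449.9 and 1183.3 in center PSM and 2955.4 and 2921.8 in anterior PSM (-1.16 ± 0.21, adjusted p = 0.0214). *plpp1a*, which encodes a phospholipid phosphatase, had 162.9 and 102.1 in center PSM and 814.5 and 842.5 in anterior PSM (-2.57 ± 0.51, adjusted p = 0.037). *pgp*, a phosphoglycolate phosphatase gene, had 236.6 and 260.8 in center PSM and 597.9 and 614.1 in anterior PSM (-1.25 ± 0.24, adjusted p = 0.0263). None of these 3 was called with 1 array left out, and *rnd3a* and *pgp* were not called under median centring. *plpp1a* was not called with an offset of 1 (limma adjusted p = 0.132) or with the filter at the 60th percentile (limma adjusted p = 0.0665). In the somites the means were 3128 ± 951 for *rnd3a*, 1048 ± 310 for *plpp1a* and 1159 ± 85.5 for *pgp*.

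No tested gene of the somite and muscle lists was called, where 0.263% of all tested genes were. Of 17 tested somite and myogenic transcription factors, both center arrays lay below both anterior arrays in 9 (18.2% of all tested genes). The median was -0.60, with -0.55 after quantile normalization and -0.35 without replicate 2 of center PSM. It was -0.85 after median centring, which put the median of all probe sets at -0.22. *tcf15*, the somite factor paraxis, had 530.3 and 301.5 in center PSM and 1008.7 and 1120.5 in anterior PSM. Its difference of -1.38 was not called (adjusted p = 0.133). It passed in 1 of 16 alternative fits, that of only the 4 arrays (adjusted p = 0.0042). *dmrt2a*, a factor of somite symmetry, had 296 and 275.8 in center PSM and 410.5 and 517.5 in anterior PSM (-0.67, adjusted p = 0.763). *myf5* had 534.5 and 367.6 in center PSM and 548.6 and 528.9 in anterior PSM, and *myod1* had 84.4 and 108.3 in center PSM and 137.2 and 209.7 in anterior PSM, both myogenic factors without a call (adjusted p = 0.913 and 0.912). *foxc1a*, a forkhead factor of somite formation, had 1152.2 and 600.8 in center PSM and 1218.7 and 1324.1 in anterior PSM (-0.60, adjusted p = 0.706). It is also in the list for segment boundaries and polarity, and its difference is the median of both lists. Its paralog *foxc1b*, also in both lists, differed by 0.05. That was -0.20 under median centring, which put the median of all probe sets at -0.22.

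Of 23 tested sarcomere genes 0 were called by limma at an adjusted p under 0.05, with a median of -0.50 that became -0.16 without replicate 1 of center PSM. Both center arrays lay below both anterior arrays in 9 of the 23 and above in 3 (18.2% and 20.5% of all tested genes). Titin, *ttn.2*, had 116.4 and 42.2 in center PSM and 261.9 and 341.8 in anterior PSM (-1.90, adjusted p = 0.164). In the lists for adhesion (30 tested genes) and matrix (27) limma also called 0. *has2*, a hyaluronan synthase gene, averaged 30.5 ± 21.6 in center PSM and 161.5 ± 23.3 in anterior PSM without overlap (-2.12, adjusted p = 0.0859). *fn1b*, a fibronectin gene, had 1650.3 and 895.7 in center PSM and 1358.8 and 1644.3 in anterior PSM, and *cdh2*, N-cadherin, had 2387.2 and 1959.6 in center PSM and 2862.9 and 2554.9 in anterior PSM. *fn1a*, another fibronectin gene, differed by 0.02, while its other 2 probe sets differed by -1.12 and -1.49 without overlap and without a call (adjusted p = 0.715 and 0.706). *itga5*, an integrin subunit of the fibronectin receptor, had low signals of 27 and 14.5 in center PSM and 59.7 and 28 in anterior PSM.

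Genes of growth and division differed by small amounts. In ribosome biogenesis 74 of 83 tested genes had a value below 0, and both center arrays lay below both anterior arrays in 39 (18.2% of all tested genes). None was called by limma, and the median was -0.23, with -0.34 without replicate 1 of center PSM and -0.14 without its replicate 2. It was -0.18 after quantile normalization and -0.47 after median centring, which put the median of all probe sets at -0.02 and -0.22. Of 72 cytosolic ribosomal protein genes 64 had a value below 0, with a median of -0.11 that became 0.0011 after quantile normalization. Both center arrays lay below both anterior arrays in 32 of the 72 and above in 1 (18.2% and 20.5% of all tested genes). Lists for DNA replication (44 tested genes) and mitosis (50) had medians of -0.0078 and -0.043, with 0 calls by limma, and both turned above 0 under some alternatives, such as 0.032 for replication and 0.003 for mitosis without replicate 1 of center PSM.

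**Figure D4:**
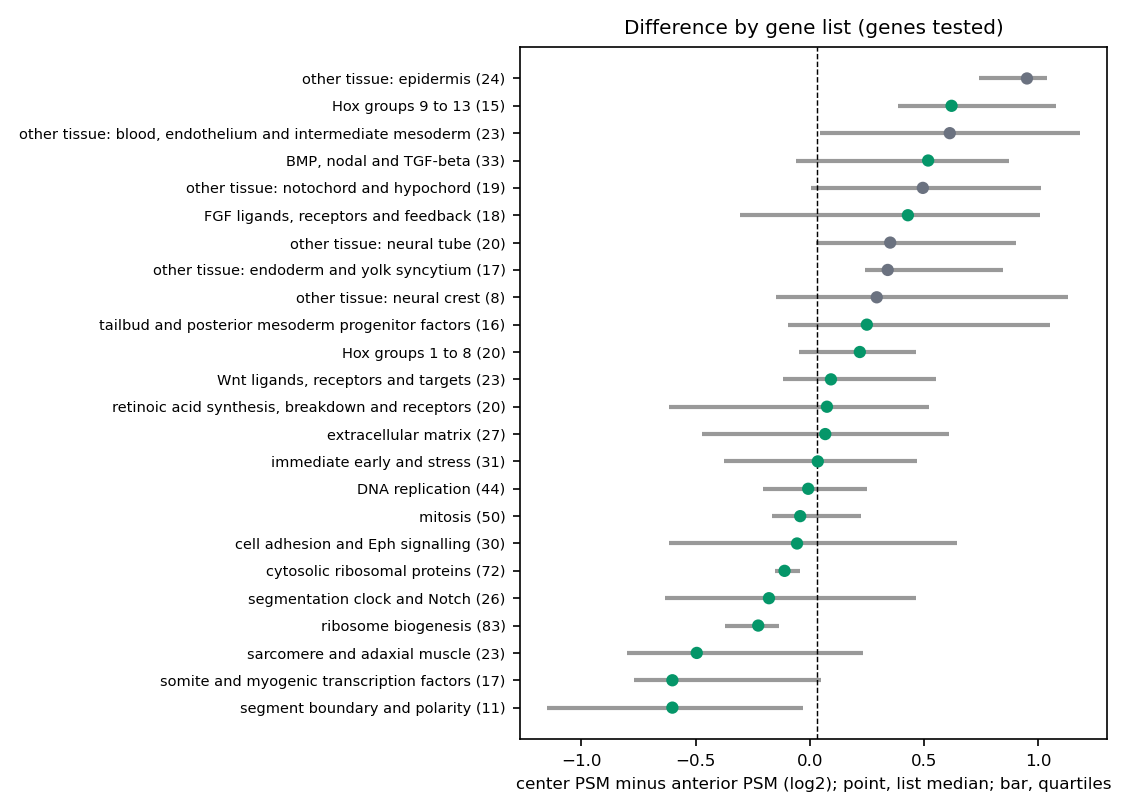
Median difference (points) and quartiles (bars) between center and anterior PSM on the log2 scale for each gene list, with the number of tested genes in brackets. Green points are pathway and cell function lists, grey points are lists of other tissues, and the dashed line is the median of all tested probe sets (0.03). The epidermal list has the highest median (0.95), and the boundary and somite factor lists have the lowest (both -0.60). These lists share *foxc1a* and *foxc1b*, and the difference of *foxc1a* is the median of both.

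Markers of tissues beside the PSM were measured because the pieces were cut by hand. In the epidermal list 24 of 24 tested genes had a value above 0, with 0 called by limma and both center arrays above both anterior arrays in 11 (20.5% of all tested genes). The summed signal of its 29 genes on the array was 12292 and 10834 in center PSM and 8072 and 5297 in anterior PSM. The keratin gene *krt4* had 1746.4 and 1562.5 in center PSM and 1407.2 and 621.2 in anterior PSM, and *epcam*, an epithelial adhesion gene, had 1275.6 and 1348.9 in center PSM and 623.4 and 611.7 in anterior PSM. The list of blood, endothelium and intermediate mesoderm had a median of 0.61, with summed signals of 4281 and 9999.7 in center PSM and 6153 and 2639 in anterior PSM. Lists for notochord, neural tube, endoderm and yolk, and neural crest had medians from 0.29 to 0.49. Summed signals in center PSM against anterior PSM were 2564 and 2939 against 2572 and 2521 for notochord, and 3119 and 3161 against 3279 and 4199 for neural tube. For endoderm and yolk they were 9032 and 8599 in center PSM against 7447 and 6653 in anterior PSM, and for neural crest 2359 and 2685 against 1236 and 2285. Single arrays and the filter moved these medians. The epidermal one was 0.39 without replicate 2 of anterior PSM, and that of blood, endothelium and intermediate mesoderm was 0.31 without it and 0.33 without replicate 2 of center PSM. Neural crest was -0.04 without replicate 1 of anterior PSM, and with the filter at the 60th percentile neural crest was -0.14 and notochord -0.055. Neural tube was 0.16 without replicate 1 of anterior PSM and notochord 0.23 without replicate 2 of center PSM. No member of these lists was called, and their part in the results above was not tested.

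The difference farthest from 0 among the called probe sets belonged to a germ cell gene. *nanos3*, which encodes an RNA-binding protein of primordial germ cells, had 1316.7 and 304 in center PSM and 20.1 and 5.8 in anterior PSM (4.75 ± 0.76, 26.9-fold, adjusted p = 0.007). On the other 8 arrays it lay between 3.9 and 70.9. *dnd1*, which encodes the germ cell protein Dead end, had 701 and 252.8 in center PSM and 72.1 and 70.4 in anterior PSM (2.38 ± 0.42, adjusted p = 0.0185). Both center arrays lay above the rest, replicate 1 more so. Without it *nanos3* differed by 3.71 and *dnd1* by 1.67, and neither was called. Nor was either gene called when an anterior array was left out, whichever it was. *nanos3* was also not called with an offset of 1 (limma adjusted p = 0.0629), and *dnd1* was not called under median centring.

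A list of 28 germ cell and oocyte genes, several of them also expressed in other tissues, was written after these calls were seen and is given as a description. It had 18 genes on the array, of which 11 passed the filter on low values. The summed signal of the 18 was 3636 and 2016 in center PSM and 1213 and 1115 in anterior PSM, and lay between 972.5 and 1383 on all 10 arrays other than the center PSM ones. Without *nanos3* and *dnd1* it was 1619 and 1460 in center PSM and 1121 and 1038 in anterior PSM. *tdrd7a*, a Tudor gene of germ granules that did not pass the filter, had 192.1 and 104.9 in center PSM and 20.7 and 8.7 in anterior PSM. *ddx4*, the germ cell helicase Vasa, had 140.1 and 5.3 in center PSM and 3 and 4 in anterior PSM, so it was raised on 1 array alone of the 4. *dazl*, another germ cell gene, had 83.4 and 5.5 in center PSM and 13.5 and 34.8 in anterior PSM. The part of germ cells in these values was not tested.

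The called probe sets were also followed in the posterior PSM and the somites. The means of these arrays do not enter the difference, but the arrays share in the spread and the filter behind the calls, so the counts are given as a description. Of the 11 that were higher in center PSM, 10 had both posterior PSM arrays above both somite arrays, as did 34.1% of all tested probe sets, and *dnd1* was the exception. Of the 12 that were lower in center PSM, 9 had both posterior PSM arrays below both somite arrays, as did 21.4% of all tested probe sets. The other 3 were *sp5l* and a probe set without a symbol, which were higher in posterior PSM, and *mespba*, whose arrays overlapped there. Of the 3 probe sets without a symbol that were lower in center PSM, the one with signals of 3284.9 and 5948.1 in the somites had 799.7 and 450.8 in center PSM and 2405.3 and 2090.1 in anterior PSM (-1.88 ± 0.38, adjusted p = 0.0421). Of the 2 that were higher, the one with the smaller adjusted p had 296.3 and 280.6 in center PSM and 55.4 and 94.1 in anterior PSM (1.83 ± 0.27, adjusted p = 0.00326).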

How the data were processed

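The authors deposited 1 intensity for each probe set and array. The submitters' processing notes name MAS5, with no version. On all 12 arrays the mean trimmed by 2% at each end was 150, so the authors had applied 1 scaling factor per array, and no detection calls are in the table. Control probe sets (115 of 15617) were left out. Exactly 1 gene symbol is given for 10795 of the remaining 15502, several for 135 and none for 4572. Sequences and genome positions were not used here.

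An offset of 12.2, which is the 25th percentile over all values, was added before log2 was taken. The 10851 probe sets whose mean reached the 30th percentile were tested and the lower 4651 were not. Means of the 6 positions were estimated in limma 3.58.1 (R 4.3.3), with variances that follow the intensity (6 residual and 12.8 prior degrees of freedom), and center minus anterior PSM was tested two-sided with Benjamini-Hochberg adjustment. All positions share 1 spread per probe set. The number of arrays limits the precision. The procedure was also run on simulated data in which the spreads were shuffled over the probe sets. Such data lack the link between spread and intensity, so they do not test the trend on which the calls lean.

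A gene is represented by its tested probe set of highest mean. Named are the called genes with a symbol (up to 15 per direction, signal above 97.3, arrays not overlapping), a list of core segmentation genes, and members of lists as examples. The 24 lists were chosen with earlier results of these data known. Lists are described by counts and medians. The alternatives were quantile normalization, median centring, offsets of 1 and of the median (50.0), a filter at the 60th percentile or none, array weights, variances without the intensity trend, a block for the replicate number, only the 4 arrays, no tailbud flank, 1 value per gene, and each of the 4 arrays left out.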

Additional observations from a re-analysis of the deposited data

How the results depend on the processing

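The sign of all 23 called probe sets was kept under every one of the 16 alternatives in which they were tested. For many of these alternatives it could not change. In all 23 the arrays do not overlap, so leaving out 1 array keeps the sign. The filter, the trend, the weights, the block and the arrays of other positions left the difference itself as it was. The number called did depend on the settings. Called higher in center PSM were 11 probe sets as reported, 6 under median centring, 0 without the intensity trend, 35 with only the 4 arrays and 18 without the tailbud flank. Called lower were 12 as reported, 6 with an offset of 1, 28 with an offset at the median, 5 with the filter at the 60th percentile, 0 without the intensity trend, 19 with array weights, 57 with only the 4 arrays and 28 without the flank. With 1 array left out, 3 to 8 were higher and 2 to 6 lower. Of the calls, 47.8% were higher in center PSM, but 60.9% after quantile normalization and 31.6% after median centring, which moved the median of all probe sets to -0.22. Of the 23, quantile normalization kept 20, median centring 14, the fit of only the 4 arrays 21, and the fits that left out an array 4 to 10. The cause of these changes was not tested, other than that the fits with an array left out rest on fewer samples.

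The deviations of same-numbered arrays of center and anterior PSM correlated across probe sets with r = 0.038. This value cannot register a shift of whole arrays. The median signal was higher on replicate 2 in center PSM (67.6 against 52.2) and anterior PSM (55.2 against 41.9). The tailbud flank was the one position where replicate 2 had the lower median (57.5 against 68.3). Whether the replicate numbers pair the arrays is thus not settled. With the replicate number as a block, 14 were higher and 15 lower, among them all 23.

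Core genes without a call changed sign in 12 cases, none of them called. With 1 array left out, differences ran from -0.32 to 0.082 for *dld*, from -0.40 to 1.16 for *notch1a*, from -2.36 to 1.28 for *cyp26a1*, from -0.0071 to 0.10 for *foxc1b*, from -0.26 to 0.31 for *fn1a* and from -0.73 to 0.14 for *fn1b*, and *notch1a* was -0.35 without replicate 1 of anterior PSM. *foxc1b* was -0.001 under quantile normalization and -0.20 under median centring. *fn1a* was -0.042 and -0.22 under these and -0.86 averaged over its probe sets.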
